A study of Mus musculus with 30 samples.

Results

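The genes described here encode the subunits of the mitochondrial respiratory chain and ATP synthase. They were the 95 of 17420 measured genes whose names match the series of Nduf, Sdh, Uqcr, Cyc1, Cox4 to Cox8, Atp5 and mitochondrially encoded mt-Nd, mt-Co, mt-Cytb and mt-Atp symbols. Of these, 82 lie in the nucleus (35 in complex I, 4 in complex II, 9 in complex III, 18 in complex IV and 16 in complex V). The other 13 lie in mitochondrial DNA (7 in complex I, 1 in complex III, 3 in complex IV and 2 in complex V). No expression value was used to choose them.

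The respiratory chain takes electrons from NADH at complex I and from succinate at complex II, hands them through complex III and cytochrome c to complex IV, and leaves them on oxygen. The proton gradient built on the way drives complex V, the ATP synthase. Complex II is made only of nuclear gene products, while the other complexes combine nuclear subunits with a few made inside the mitochondrion. Mitochondrial DNA is read as long RNAs that are cut, mostly at tRNAs, into the separate messages. Skeletal muscle holds much of this machinery, with tissue forms of several complex IV subunits that most other tissues lack.

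RNA was taken from quadriceps muscle and whole spinal cord of the same 15 male mice at 4 months of age. The product of Gaa, acid alpha-glucosidase, degrades glycogen in lysosomes, and its loss causes Pompe disease. Mice that were wild-type (WT) or knocked out (KO) for Gaa were untreated on a B6;129 background, written B6129 from here on. The same genotypes, also untreated, were studied on a B6;129;DBA2/J background labelled Ltbp4D36/D36, called the DBA mix, in which every group carried that Ltbp4 genotype. Further KO mice of the DBA mix, called treated, had been injected into the temporal vein at postnatal day 1 to 2 with an AAV9 vector (AAV9-sp7-Δ8-hGAAco) that directs secreted human GAA from a liver-muscle promoter. Each of the 5 groups gave 3 libraries per tissue, each from a separate mouse. The p-values within a tissue rest on the spread between animals within groups, pooled over its 5 groups in 1 fit. The libraries of the 2 backgrounds carry different series letters, so background and library series cannot be told apart.

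The deposited value is a normalised signal, close to reads per scaled library size. Reads recovered from it came to 1.69e+07 to 3.71e+07 per quadriceps library and 1.92e+07 to 3.42e+07 per spinal cord library. At that depth 3 reads stand for a signal of 0.0987 to 0.216 in quadriceps and 0.0536 to 0.111 in cord. Gaa itself had signals of 11.6 to 18.9 in KO and treated quadriceps against 169 to 308 in WT, and of 8.09 to 17.7 against 131 to 236 in cord. The human transgene is not part of this mouse measurement. Fast-fibre genes summed to 134794 or more in every quadriceps library and to 1550 at most in WT cord, while neuronal genes summed to 10.4 at most in quadriceps and 4759 or more in WT cord. Differences below are log2(signal + 0.5) differences from limma with Benjamini-Hochberg adjustment over all genes tested (14113 in quadriceps, 15838 in cord), and a gene is said to have risen or fallen where the adjusted p was under 0.05. Of the nuclear members, 81 passed the filter on low signal in quadriceps, where Cox6b2, a form of Cox6b known from testis, did not, and 82 passed in cord. All 13 mitochondrially encoded members passed in both. Some counts below have no share over all genes beside them and only describe the members. These include counts at an unadjusted p, counts of signs, and counts from edgeR, DESeq2 or other settings. In bulk RNA, fewer cells of a type and less RNA per cell cannot be told apart.

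Mitochondrial messages lie end to end, and some overlap. One stretch carries the end of mt-Atp8 and the start of mt-Atp6, the ATP synthase subunits read from 1 shared message, at chrM:7907-7989 of GRCm38 on the plus strand. It is given to show bases that belong to both genes. The overlap is shorter than a read of 61 bases, so no full-length read lies within both. Capitals mark the 43 bases, chrM:7927-7969, that belong to both.

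mt-Atp8/mt-Atp6: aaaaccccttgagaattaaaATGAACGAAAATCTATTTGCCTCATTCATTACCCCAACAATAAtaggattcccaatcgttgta

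The capitals open with the ATG of mt-Atp6 and close with the TAA of mt-Atp8. A further 3 pairs touch: mt-Nd4l and mt-Nd4 share 7 bases, mt-Atp6 and mt-Co3 share 1 base, and mt-Nd5 and mt-Nd6 share 14 bases on opposite strands. These overlaps too are shorter than a read. Nothing in the sources used here says that strand was kept when reads were counted. If it was not, reads over mt-Nd6 may include RNA of the opposite strand, on which mt-Nd5 lies.

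In quadriceps the balance between the genomes differed with the knockout on both backgrounds. In WT B6129 quadriceps the 13 mitochondrially encoded members drew 7.30, 7.36 and 7.64 reads for each read of the 82 nuclear members. In KO quadriceps of that background the ratio was 5.45, 5.08 and 4.41. All 3 KO libraries lay below all 3 WT libraries. In the DBA mix the WT ratio was 6.64, 6.54 and 6.04 and the KO ratio 4.53, 5.43 and 4.74, again without overlap. Treated KO quadriceps gave 6.71, 6.79 and 7.17, each above every WT and untreated KO library of the DBA mix, although with nuclear copies of mitochondrial genes added in (described further on) treated and WT overlapped. The mean log2 ratio of KO differed from that of WT by -0.58 on B6129 and -0.39 on the DBA mix, and that of treated from untreated KO by 0.50. These are descriptions of a ratio over chosen genes and carry no test.

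**Figure D1:**
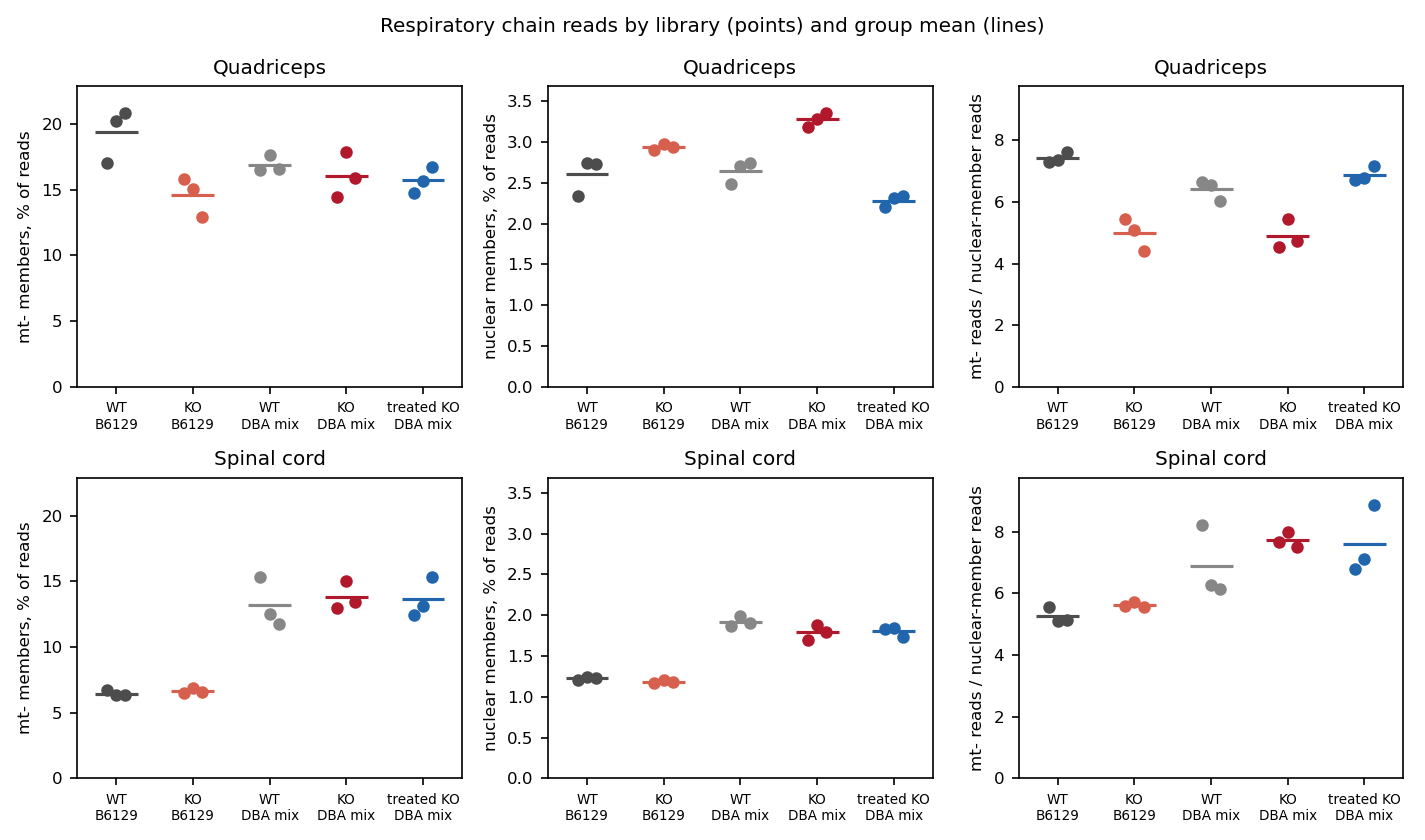
Reads of the respiratory chain genes in each library. The left panels give the mitochondrially encoded members and the middle panels the nuclear members as a percentage of all reads, and the right panels give the ratio of the first to the second, with quadriceps above and spinal cord below; points are libraries and lines are means of 3. The KO quadriceps ratios of 4.41 to 5.45 lie below the WT ratios of 6.04 to 7.64, and the treated ratios of 6.71 to 7.17 do not overlap those of untreated KO.

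As a percentage of all reads, the nuclear share separated the genotypes on both backgrounds and the mitochondrial share on 1. On B6129 the mitochondrially encoded members took 17.1, 20.2 and 20.8% of reads in WT and 15.8, 15.1 and 13.0% in KO quadriceps, while the nuclear members took 2.34, 2.74 and 2.73% in WT and 2.90, 2.97 and 2.94% in KO. Here both shares separated the genotypes, in opposite directions, but they are parts of the same total and not independent. Relative to reads outside mitochondrial DNA the nuclear share on B6129 was 2.83, 3.45 and 3.45% in WT. It was 3.46, 3.51 and 3.38% in KO, which overlaps WT. On the DBA mix that share stayed apart, at 2.99, 3.30 and 3.29% in WT and 3.74, 4.03 and 4.00% in KO. Between genotypes of the DBA mix the mitochondrial share overlapped, with 16.5, 17.7 and 16.6% in WT and 14.4, 17.9 and 15.9% in KO, and the nuclear share did not, with 2.49, 2.70 and 2.74% against 3.19, 3.29 and 3.35%. Treated quadriceps gave mitochondrial shares of 14.8, 15.7 and 16.8%, which overlap untreated KO, and the lowest nuclear shares of all groups at 2.20, 2.31 and 2.34%, apart from 1 WT B6129 library at the same rounded value.

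In the spinal cord the ratio did not fall with the knockout. It was 5.55, 5.11 and 5.15 in WT and 5.58, 5.71 and 5.56 in KO of B6129, a mean log2 difference of 0.09 with each KO value above each WT value. For the DBA mix it was 8.21, 6.29 and 6.16 in WT, 7.67, 8.00 and 7.49 in KO, and 6.78, 7.12 and 8.88 in treated mice, with overlap between all 3 groups. The mean log2 differences there were 0.18 for KO against WT and -0.03 for treated against untreated KO.

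Of the 13 mitochondrially encoded members, 10 fell and none rose in B6129 KO quadriceps, where 35.8% of all genes tested were called and 19.0% were lower. The median difference of the 13 was -0.77, against -0.02 over all genes. Under quantile normalisation 4 of them fell, and relative to reads outside mitochondrial DNA 8 did. mt-Atp8, mt-Nd2, mt-Nd4l and mt-Nd5 fell under every setting tried. Among the complex I subunits of mitochondrial DNA, mt-Nd5, a proton-pumping core subunit, had a signal of 10813, 11129 and 9559.5 in WT and 6289.7, 5162 and 4502 in KO. Every KO value was below every WT value. It fell by 0.99 ± 0.15 (SE) on the log2 scale (adjusted p = 0.00017). For mt-Nd4l, a small core subunit whose end overlaps mt-Nd4, WT values were 3086, 3367 and 3953 and KO values 2015, 1623 and 1355. The groups were again apart, with a difference of -1.07 ± 0.16 (adjusted p = 0.000189). mt-Nd2, another membrane core subunit, went from 15995, 16781 and 20606 in WT to 10745, 9022 and 7879 in KO (-0.95 ± 0.16, adjusted p = 0.000574).

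The remaining mitochondrially encoded complex I genes were less uniform. mt-Nd1, the subunit next to the quinone site, had 24477, 29583 and 31042 in WT and 18647, 16418 and 14704 in KO (-0.77 ± 0.15, adjusted p = 0.00144), with no overlap. mt-Nd4 differed by -0.78 ± 0.17 (adjusted p = 0.00347). mt-Nd6, the one protein gene on the opposite strand, read 3521, 3949 and 3147 in WT and 2504, 2338 and 2124 in KO (-0.60 ± 0.12, adjusted p = 0.00122). mt-Nd3 was the exception in complex I. Its WT values of 1133, 2143 and 1587 enclosed 2 of the KO values of 1376, 1808 and 1124, and it differed by -0.15 ± 0.23 (adjusted p = 0.646).

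In complex III, mt-Cytb, the cytochrome b that binds quinone, fell by 0.60 ± 0.17 (adjusted p = 0.0132), from 28050.0, 30859.8 and 34604 to 24464, 19617 and 17749.7. In complex IV the catalytic subunit mt-Co1 went from 70095, 82662 and 95071 to 52770.2, 48580.3 and 43689 (-0.77 ± 0.19, adjusted p = 0.00726), which turned to 0.12 under quantile normalisation. The groups of both genes were apart. mt-Co2, which receives electrons from cytochrome c, fell by 0.54 ± 0.17 (adjusted p = 0.0248), and mt-Co3 differed by -0.40 ± 0.17 (adjusted p = 0.0837). In complex V, mt-Atp8 had 5022, 5863 and 6602 in WT and 3432, 2912 and 2446 in KO (-0.997 ± 0.16, adjusted p = 0.000283), while mt-Atp6, the proton-channel subunit, scattered from 10005 to 26488 in WT and from 6716 to 17211 in KO (-0.65 ± 0.40, adjusted p = 0.233).

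On the DBA mix, 7 of the 13 fell and 1 rose, where 39.4% of all genes tested were called and 22.3% were lower. Their median difference was -0.47, against -0.04 over all genes. Under quantile normalisation 2 of them fell and relative to reads outside mitochondrial DNA 3 did, mt-Nd4l and mt-Nd5 under every setting tried. mt-Nd5 had 7748, 7612 and 7295 in WT and 3911, 4990.2 and 4311 in KO (-0.78, adjusted p = 0.000888). The groups did not overlap. mt-Atp8 differed by -0.77 (adjusted p = 0.00162), mt-Nd4l by -0.74 (adjusted p = 0.00251), mt-Nd2 by -0.65 (adjusted p = 0.00709), mt-Nd6 by -0.47 (adjusted p = 0.00586), mt-Nd4 by -0.55 (adjusted p = 0.0232) and mt-Co1 by -0.54 (adjusted p = 0.0389), or by 0.23 under quantile normalisation. The member that rose was mt-Nd3, with 1054, 1295 and 1695 in WT and 1887, 2040.2 and 2243 in KO (0.63, adjusted p = 0.0457), a call lost in 8 of 15 fits with 1 library left out. Not called were mt-Nd1 (-0.34), mt-Cytb (-0.40), mt-Co2 (-0.21), mt-Co3 (-0.13) and mt-Atp6 (0.54).

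mt-Nd3 and mt-Atp6 share nearly all of their sequence with nuclear copies that are counted separately. Of all 61-base stretches of the member, Gm10925 holds 99.5% of those of mt-Atp6, Gm28438 97.9% of those of mt-Nd3, Gm28437 99.9% of those of mt-Co3 and Gm28661 99.5% of those of mt-Co2. The split of signal between gene and copy varied widely from library to library. In quadriceps the copy took 6.69 to 81.0% of the summed signal of mt-Atp6 and Gm10925 and 27.8 to 64.2% of that of mt-Nd3 and Gm28438. For mt-Co3 that share ran up to 25.4%. In cord the shares were 73.8 to 90.7% for mt-Atp6, 47.1 to 70.0% for mt-Nd3 and 27.1 to 52.0% for mt-Co3. They ran up to 42.7% for mt-Co2 and, for mt-Nd4 with Gm28439, up to 17.2%. A read of such a stretch cannot be assigned to one or the other, so the values of these members are uncertain.

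When each member was summed with its copies, an alternative chosen after seeing the data, the scatter of mt-Atp6 shrank. Its summed signal was 28902, 31892 and 37226 in WT and 22982, 18445 and 16870.0 in KO of B6129, with no overlap. It then differed by -0.75 ± 0.17 (adjusted p = 0.00324) there, by -0.55 (adjusted p = 0.0187) on the DBA mix, and by 0.33 (adjusted p = 0.136) between treated and untreated KO. mt-Co3 summed with Gm28437 differed by -0.63 ± 0.16 (adjusted p = 0.00731) on B6129 and -0.43 (adjusted p = 0.0457) on the DBA mix. mt-Nd3 summed with Gm28438 differed by -0.47 ± 0.14 (adjusted p = 0.0212) on B6129, and on the DBA mix its rise was gone (-0.00, adjusted p = 0.998). With copies summed, all 13 mitochondrially encoded members fell on B6129 (median -0.76) and 9 fell and none rose on the DBA mix (median -0.52). The WT and KO ratios of mitochondrial to nuclear reads still did not overlap, at 7.65 to 8.57 against 4.77 to 6.01 on B6129 and 6.58 to 7.59 against 4.79 to 5.86 on the DBA mix. The treated ratios, at 7.08, 7.51 and 7.85, stayed above those of untreated KO but now overlapped those of WT.

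**Figure D2:**
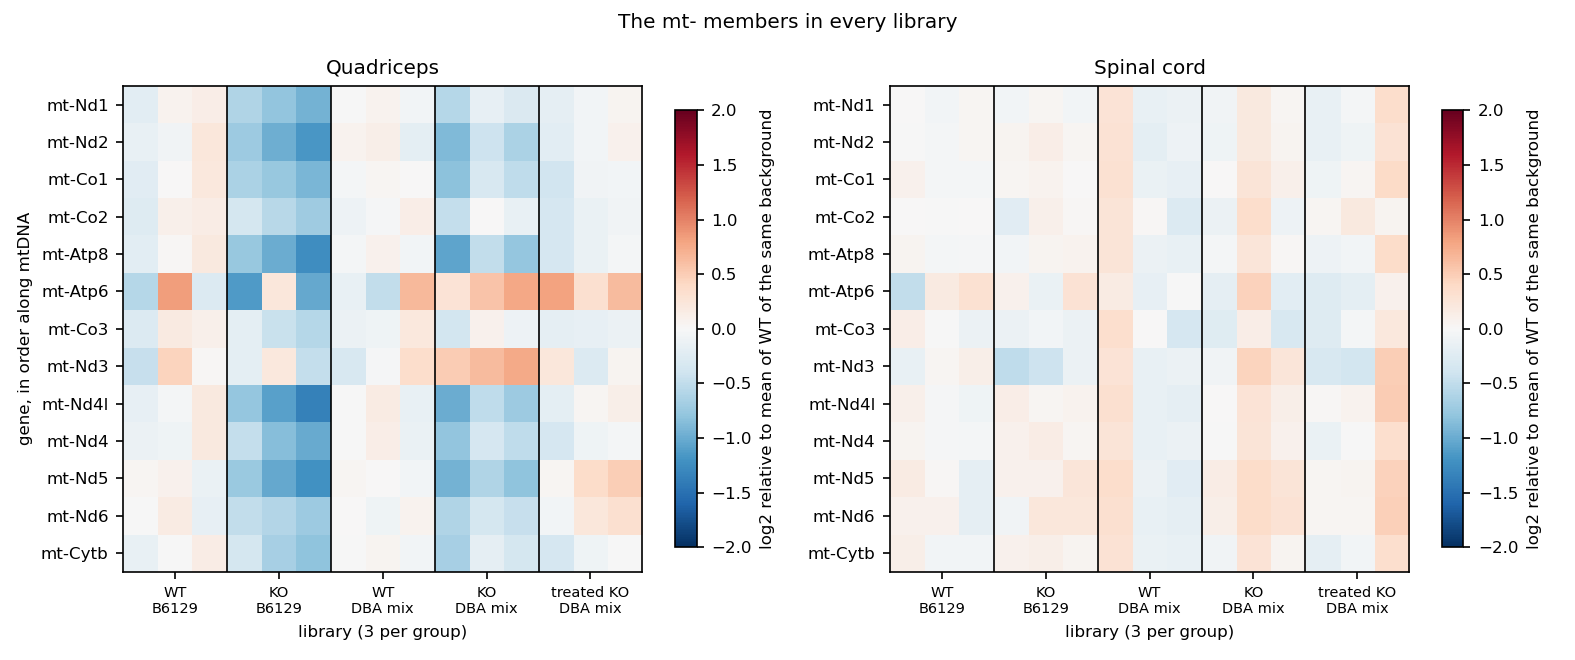
Each mitochondrially encoded member in each library, as the log2 difference from the mean of WT libraries of the same background and tissue, with genes in their order along mitochondrial DNA and 3 libraries per group between the lines. Blue is lower and red is higher. In KO quadriceps most genes are blue, while mt-Atp6 and mt-Nd3, which share their reads with nuclear copies, do not follow the others from library to library.

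Part of this set rose with the vector. Between treated and untreated KO quadriceps of the DBA mix, 5 of the 13 mitochondrially encoded members rose and 1 fell, where 40.6% of all genes tested were called and 23.6% were higher. Under quantile normalisation 2 rose and relative to reads outside mitochondrial DNA 3 did, mt-Nd5 and mt-Nd6 under every setting tried. As stated above, reads over mt-Nd6 may include RNA of the opposite strand, on which mt-Nd5 lies, so these may not be separate results. The risers were mt-Nd5 (1.08, adjusted p = 5.82e-05), mt-Nd4l (0.73, adjusted p = 0.00236), mt-Nd6 (0.63, adjusted p = 0.000667), mt-Atp8 (0.61, adjusted p = 0.00709) and mt-Nd2 (0.58, adjusted p = 0.0116). Treated mt-Nd5 signals of 7763, 9773 and 10581 lay above all untreated KO values and above the WT values of 7748, 7612 and 7295. Against WT its difference was 0.30 (adjusted p = 0.246). mt-Nd3 was lower by 0.63 on the log2 scale (adjusted p = 0.0464), a call lost in 8 of 15 fits with 1 library left out, and by 0.03 (adjusted p = 0.896) when summed with its copy. mt-Co1 had 57946, 72112 and 72837 in treated muscle, and the difference of 0.37 was not called (adjusted p = 0.143). Between treated KO and WT none of the 13 was called by limma, edgeR or DESeq2, and their median difference was -0.06. Limma called only 2.98% of all genes there, 1.93% higher and 1.05% lower. No call among 13 genes is near those shares. The KO and treatment comparisons of the DBA mix share the untreated KO libraries.

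Nuclear members did not move as a block. In B6129 KO quadriceps 9 of the 81 tested rose and 13 fell, where 16.7% of all genes tested rose and 19.0% fell. Of the same genes 22 rose and 10 fell on the DBA mix, where 17.1% of all genes rose and 22.3% fell. The median difference of the nuclear members was -0.03 on B6129 and 0.10 on the DBA mix. This split depends on the scaling: relative to reads outside mitochondrial DNA, which raises the median of all genes by 0.17 on B6129 and 0.23 on the DBA mix, 34 rose and 4 fell on B6129 and 55 rose and 2 fell on the DBA mix. Quantile normalisation gave 29 higher and 8 lower on B6129 and 44 higher and 4 lower on the DBA mix. On B6129 the counts were 3 and 23 without WT library 4 and 14 and 8 without WT library 5, and on the DBA mix 6 fell without KO library 6. Called under every setting tried, with each library left out too, were the rises of Cox8a, Ndufa13 and Ndufa2 and the falls of Atp5s, Ndufs1 and Sdha on B6129. In the DBA mix the same held for 14 of the 22 risers and, of those that fell, for Cox4i2 and Ndufa4l2.

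**Figure D3:**
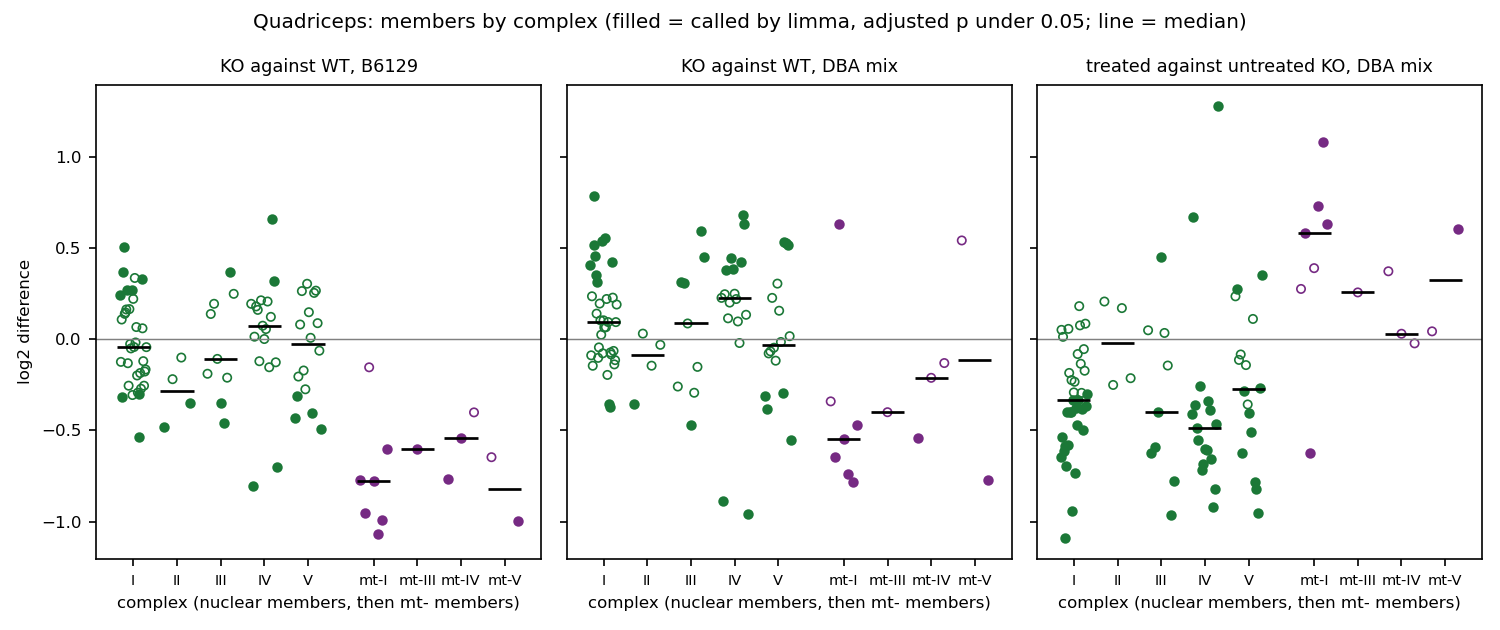
Log2 differences of each member in quadriceps by complex (green nuclear, violet mitochondrially encoded), for KO against WT on each background and for treated against untreated KO; filled points were called by limma at an adjusted p under 0.05 and lines are medians. Nuclear members lie on both sides of 0 in KO muscle, and 48 of 81 fell with treatment.

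Complex I, the NADH dehydrogenase, held 6 nuclear members of 35 that rose and 3 that fell on B6129, where 16.7% of all genes rose and 19.0% fell, and 9 and 2 on the DBA mix, where 17.1% rose and 22.3% fell. The share of risers on B6129 is close to that of all genes. Ndufa2, a small accessory subunit of the matrix arm, had 167, 189 and 176 in WT and 241, 249.8 and 264 in KO of B6129. The groups were apart, and it rose by 0.50 ± 0.10 (adjusted p = 0.00119). For the DBA mix its WT values of 173, 181 and 213 met KO values of 311, 295 and 377 (0.79, or 1.73-fold, adjusted p = 3.55e-05). Ndufa13, an accessory subunit also known as Grim19, rose by 0.37 ± 0.08 (adjusted p = 0.00279) and 0.52 (adjusted p = 0.000223). Ndufb3, in the membrane arm, rose by 0.27 ± 0.09 (adjusted p = 0.0286) and 0.54 (adjusted p = 0.000386).

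The complex I members that fell include Ndufs1. This gene, which encodes the largest core subunit, with iron-sulphur clusters, had 621, 741 and 827 in WT and 519.8, 498 and 485 in KO of B6129, without overlap (-0.53 ± 0.11, adjusted p = 0.00221). In the DBA mix it had 688, 755 and 692 in WT and 491, 617 and 563 in KO (-0.36, adjusted p = 0.0211). Ndufa12 fell on B6129 (-0.32) and summed with its copies differed by -0.24 (adjusted p = 0.0495) there and -0.32 (adjusted p = 0.0101) on the DBA mix.

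Ndufs5, an accessory subunit, illustrates the weight of a copy in the nuclear set. By itself it rose on both backgrounds (0.33 ± 0.12, adjusted p = 0.0382, and 0.43, adjusted p = 0.01). Its near copy BC002163 took between 0.0083 and 40.0% of the summed signal in quadriceps. Summed, the values were 184, 268 and 232 in WT and 226, 198 and 198 in KO of B6129, which overlap, and the difference turned to -0.12 ± 0.14 (adjusted p = 0.514) on B6129 and -0.15 (adjusted p = 0.406) on the DBA mix. Atp5g2 and Ndufb4 share still more with copies, 78.4 to 92.6% and 60.1 to 66.2% of the summed signal, and are uncertain as well.

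Complex II, succinate dehydrogenase, had none of 4 members that rose in KO quadriceps, where 16.7% of all genes rose on B6129 and 17.1% on the DBA mix. It had 2 that fell on B6129 and 1 on the DBA mix, where 19.0% and 22.3% of all genes fell. Sdha, the flavoprotein that oxidises succinate, had 1017, 1225 and 1253 in WT and 857, 838 and 803 in KO of B6129 (-0.48 ± 0.09, adjusted p = 0.000908). In the DBA mix Sdha had 1271, 1323 and 1265 in WT and 925, 1057 and 1039.9 in KO (-0.35, adjusted p = 0.00602). Groups were apart on both backgrounds. Sdhd, a membrane anchor, fell on B6129 (-0.35, adjusted p = 0.0145) and differed by -0.03 (adjusted p = 0.832) on the DBA mix. Sdhb, the iron-sulphur subunit, and Sdhc, the other anchor, differed by -0.22 (adjusted p = 0.133) and -0.10 (adjusted p = 0.326) on B6129.

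In complex III 1 of 9 nuclear members rose and 2 fell on B6129, and 4 rose and 1 fell on the DBA mix. Over all genes 16.7% rose and 19.0% fell on B6129, and 17.1% rose and 22.3% fell on the DBA mix. The B6129 counts are not far from those shares. Uqcrh, the acidic hinge protein near cytochrome c1, had 317, 410.5 and 378 in WT and 476, 457 and 485 in KO of B6129 (0.37 ± 0.10, adjusted p = 0.0104), and 346, 369 and 430.0 against 532, 574 and 617 on the DBA mix (0.59, adjusted p = 0.000399). Neither pair of groups overlapped. The core protein Uqcrc1 went the other way, with 899, 1101 and 1169 in WT and 863, 804 and 810.2 in KO of B6129 (-0.35 ± 0.10, adjusted p = 0.0178) and a difference of -0.47 (adjusted p = 0.00281) on the DBA mix. Uqcrc2, the other core protein, fell on B6129 (-0.46, adjusted p = 0.00685) and differed by -0.29 (adjusted p = 0.0578) on the DBA mix. The redox subunits Cyc1, cytochrome c1, and Uqcrfs1, the Rieske iron-sulphur protein, were not called in quadriceps on either background.

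In complex IV, cytochrome c oxidase, 2 of 17 nuclear members rose and 2 fell on B6129, smaller shares than the 16.7% and 19.0% of all genes, and 6 rose and 2 fell on the DBA mix, where 17.1% and 22.3% of all genes did. Cox8b, the muscle form of the small subunit 8, had 471, 551 and 482 in WT and 614, 642 and 618 in KO of B6129 (0.32 ± 0.10, adjusted p = 0.0192), and rose by 0.63 (adjusted p = 0.000205) on the DBA mix. Its widely used partner Cox8a rose as well, from 21.8, 30.2 and 23.1 to 35.7, 40.9 and 41.7 on B6129 (0.66 ± 0.17, adjusted p = 0.0083) and by 0.68 (adjusted p = 0.00619) on the DBA mix. Cox4i2, an alternative form of subunit 4 known from lung and from low oxygen, was scarce and lower still in KO. It had 3.35, 1.81 and 2.25 in WT and 1.11, 0.937 and 1.5 in KO of B6129 (-0.80 ± 0.24, adjusted p = 0.0166), and fell by 0.88 (adjusted p = 0.0091) on the DBA mix. Ndufa4l2, a paralogue of the complex IV subunit Ndufa4 that is known to respond to low oxygen, fell by 0.70 ± 0.22 (adjusted p = 0.0234) and 0.96 (adjusted p = 0.00374).

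Markers of blood vessel lining moved alongside Cox4i2 and Ndufa4l2. All 7 endothelial genes listed fell in KO quadriceps of B6129 and 5 of 7 on the DBA mix, and 6 of 7 rose with treatment. Their summed signal was 348 to 425 in WT and 218 to 232 in KO of B6129, and 294 to 329 in WT, 169 to 230 in KO and 325 to 465 in treated muscle of the DBA mix. Macrophage genes rose in 8 of 8 on both backgrounds, with sums of at most 30.6 in WT and of 99.1 to 132 in KO of B6129. Fibroblast genes rose in 5 of 6 on B6129 and 4 of 6 on the DBA mix. Slow-fibre genes rose in 2 of 8 and 5 of 8, and fast-fibre genes fell in 3 of 10 and 4 of 10. Over all genes tested 16.7% rose and 19.0% fell on B6129, 17.1% rose and 22.3% fell on the DBA mix, and 23.6% rose with treatment, so the fibre counts on B6129 are not far from those shares. Fast-fibre sums were 182459 to 203599 in WT and 144751 to 152623 in KO of B6129. None of the genes in these lists was at 3 reads or fewer in every library of a group. Their part in the differences of Cox4i2, Ndufa4l2 and the other members was not tested.

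Complex V showed its catalytic core lower and, on the DBA mix, several small membrane subunits higher. Atp5a1, the alpha subunit of the catalytic head, had 3224, 3746 and 3977 in WT and 2753, 2677 and 2641 in KO of B6129 (-0.43 ± 0.11, adjusted p = 0.00567), and fell by 0.31 (adjusted p = 0.0301) on the DBA mix. Atp5b, the catalytic beta subunit, fell by 0.31 (adjusted p = 0.029) and 0.38 (adjusted p = 0.00935). The DBA mix values of Atp5a1 and Atp5b turned to 0.15 and 0.17 under quantile normalisation. Atp5s, a coupling factor with low signal, had 22.9, 20.9 and 24.4 in WT and 18.3, 14.4 and 15.5 in KO of B6129 (-0.49 ± 0.11, adjusted p = 0.00343) and fell by 0.55 (adjusted p = 0.00143) on the DBA mix. Among the membrane subunits of the DBA mix, Atp5j2 rose by 0.53 (adjusted p = 0.00378), Atp5k by 0.53 (adjusted p = 0.0091) and Atp5l by 0.52 ± 0.13 (adjusted p = 0.00685). On B6129 Atp5l differed by 0.09 and no complex V member rose. Of its 16 nuclear members 4 fell on each background and 3 rose on the DBA mix. Over all genes 16.7% rose and 19.0% fell on B6129, and 17.1% rose and 22.3% fell on the DBA mix. The DBA mix counts are close to those shares.

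By role, the 13 nuclear members that carry a redox centre or form the catalytic head held 5 that fell and none that rose on each background, while the other 68 held 9 that rose and 8 that fell on B6129 and 22 and 5 on the DBA mix. Over all genes 16.7% rose and 19.0% fell on B6129, and 17.1% rose and 22.3% fell on the DBA mix. Both B6129 counts of the other 68 are below those shares. The grouping by role was made after the values were seen. The catalytic members are also the longer messages, with a median transcript length of 1623 bases against 732.5 for the others. Length went with the difference across nuclear members, with a Spearman coefficient of -0.62 on B6129 and -0.70 on the DBA mix, and across all other genes, with -0.21 and -0.20 (genes are not independent replicates). Other genes under 600 bases had a median difference of 0.19 and 0.20 and those over 2000 bases of -0.07 and -0.09. Of the 19 nuclear members under 600 bases, 6 rose and none fell on B6129, and 12 rose and none fell on the DBA mix. With the length trend of all genes removed, an alternative chosen after seeing the data, 3 rose and 34 fell on B6129 and 14 rose and 17 fell on the DBA mix. The part of transcript length in the nuclear differences was not tested further.

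**Figure D4:**
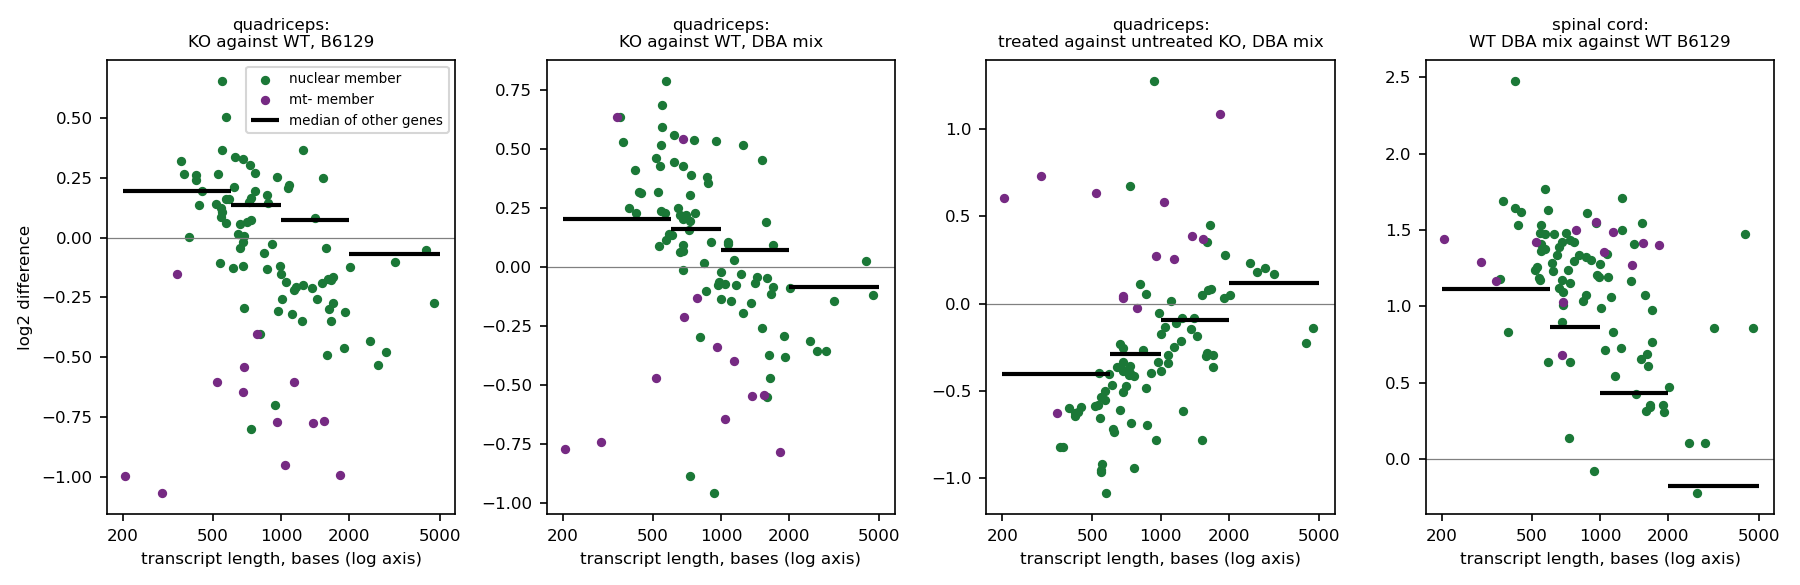
Log2 difference of each member against the length of its principal transcript (log axis, bases) in 3 quadriceps comparisons and in WT cord of the DBA mix against WT cord of B6129; green points are nuclear members, violet points mitochondrially encoded members, and black bars the medians of all other genes in each length class. Short nuclear members lie high in KO muscle and low in treated muscle, and other genes slope the same way with a smaller range.

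The difference of the knockout effect between backgrounds was called for none of the 94 members tested in quadriceps by limma, edgeR or DESeq2 (0.283% of all genes were called by limma). At an unadjusted p under 0.05 there were 6 nuclear and 1 mitochondrially encoded members. The latter was mt-Nd3 (0.79, or 0.47 summed with its copy). By value the nuclear members leaned positive, with medians of 0.16 under 1000 bases and 0.12 from 1000 bases. Other genes had medians of 0.04 under 600 bases and -0.03 over 2000 bases. With no member called, the larger number of risers on the DBA mix is not shown to differ from B6129.

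With treatment, most nuclear members fell. Between treated and untreated KO quadriceps, 48 of 81 nuclear members fell and 5 rose, where 17.1% of all genes fell and 23.6% rose. Their median difference was -0.36, against 0.05 over all genes. In complex I 20 of 35 fell and none rose, in complex IV 15 of 17 fell and 2 rose, in complex V 8 of 16 fell and 2 rose, in complex III 5 of 9 fell and 1 rose, and in complex II none of 4 was called. Relative to reads outside mitochondrial DNA 69 fell and 1 rose, with the median of all genes at -0.25, and with the length trend removed 22 fell and 8 rose. The 5 that rose became 3 without untreated KO library 6, 2 in a fit of only these groups and 3 with edgeR.

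Ndufa2 gave 154, 159.8 and 146 in treated muscle against 311, 295 and 377 in untreated KO, a fold of 0.47 (-1.09, adjusted p = 2.06e-06). The treated values lay below the WT values of 173, 181 and 213 too. Uqcrh gave 284, 309 and 288 against 532, 574 and 617, a fold of 0.513 (-0.96, adjusted p = 6.27e-06). Ndufb3 read 105, 112 and 111 against 190.2, 215 and 227 (-0.94, adjusted p = 3.56e-06), and Atp5l read 308, 302 and 288 against 543, 569 and 629.8 (-0.95, adjusted p = 6.98e-05). In all 4 genes no treated library reached an untreated KO library. In complex IV, Cox8b read 487, 459 and 458 against 723, 859 and 908 (-0.82, adjusted p = 2.04e-05), and Cox7c, a small subunit encoded in the nucleus, 343, 360.1 and 337 against 486, 582 and 579 (-0.66, adjusted p = 0.000119). Cox6b1, which faces the intermembrane space, fell by 0.72 (adjusted p = 0.000123), and Uqcrq of complex III by 0.78 (adjusted p = 9.05e-05). All 19 nuclear members under 600 bases fell, and other genes of that length had a median difference of -0.41 against 0.12 for those over 2000 bases. Fast-fibre genes rose in 5 of 10 and slow-fibre genes fell in 6 of 8 in the same comparison, with fast-fibre sums of 134794 to 156434 in untreated and 234038 to 243622 in treated KO muscle. The part of fibre type in these differences was not tested.

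The 5 nuclear members that rose with treatment were Ndufa4l2, Cox4i2, Uqcrc1, Atp5s and Atp5b, each of which had fallen in KO. Ndufa4l2 had 1.48, 3 and 3.15 in untreated and 5.56, 7.43 and 7.03 in treated KO muscle (1.28, or 2.43-fold, adjusted p = 0.000422). None of its treated values lay below a WT value (5.49, 5.56 and 4.63). Cox4i2 rose by 0.67 (adjusted p = 0.0348), Uqcrc1 by 0.45 (adjusted p = 0.00315), Atp5s by 0.35 (adjusted p = 0.0198) and Atp5b by 0.28 (adjusted p = 0.0425). The rise of Atp5b turned to -0.24 under quantile normalisation and to -0.04 relative to reads outside mitochondrial DNA. Sdha and Ndufs1, which had fallen in KO, differed by 0.21 (adjusted p = 0.0757) and 0.18 (adjusted p = 0.216).

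Against WT of the DBA mix, treated KO quadriceps had 5 nuclear members lower and none higher, where 2.98% of all genes were called, 1.05% lower and 1.93% higher. These were Ndufb3 (-0.40, adjusted p = 0.031), Ndufb8, a membrane-arm subunit of complex I (-0.31, adjusted p = 0.0437), Cox7a2 (-0.39, adjusted p = 0.0415), Atp5h, of the stator stalk (-0.52, adjusted p = 0.0241), and Atp5e, the epsilon subunit of the stalk (-0.40, adjusted p = 0.0498). Atp5h had 455, 503 and 539 in WT and 312, 375 and 355 in treated muscle. The lean of the whole set was the same way: 78 of 81 nuclear members had a negative difference, with a median of -0.24, and 42 had an unadjusted p under 0.05. Neither count has a share over all genes beside it. Other genes had a median of -0.17 under 600 bases and of 0.04 over 2000 bases. In 52 of 81 the 3 treated libraries lay below the 3 WT libraries, where 10.2% of all genes did. No nuclear member was called higher by limma, edgeR or DESeq2. DESeq2 called 25 lower, a limma fit of only these groups called none, and none was called without WT library 3.

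The tissues use different forms of some complex IV subunits, and these set the widest differences between them. Between WT quadriceps and WT cord of B6129, 79 of 81 nuclear members and all 13 mitochondrially encoded members were higher in quadriceps, where 81.3% of all genes tested in both tissues were called (44.9% higher and 36.4% lower). The median difference was 2.29 for nuclear and 2.87 for mitochondrially encoded members, against 0.14 over all genes. Under quantile normalisation 5 of the 13 mitochondrially encoded members were higher and 3 lower, while the nuclear counts stayed at 79 and 2. The 2 nuclear exceptions were Cox6a1 and Cox8a, the forms used outside muscle.

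Promoters of some muscle and general forms are shown as examples of genes whose tissue levels differ. Cox6a2, which differed more between the tissues than the muscle forms shown, is not among them. For 65 of the 82 nuclear members a RefSeq promoter (GRCm38.p6, from 250 bases before to 50 after the start) was at hand. Capitals mark matches, on either strand, to NRF1 (GCGCA, then any base, then GCGC), ETS (CCGGAAG), ERR (AAGGTCA), E-box (CAGCTG) or MEF2 (CTA, then any 4 bases, then TAG) strings, which are known for factors that act on respiratory or muscle genes. Cox7a1 (chr7:30183921-30184220, plus strand) and Cox8b (chr7:140900397-140900696, minus strand) are muscle forms. Cox6a1 (chr5:115348909-115349208, minus strand) and Cox8a (chr19:7217567-7217866, minus strand) are the general forms.

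Cox7a1: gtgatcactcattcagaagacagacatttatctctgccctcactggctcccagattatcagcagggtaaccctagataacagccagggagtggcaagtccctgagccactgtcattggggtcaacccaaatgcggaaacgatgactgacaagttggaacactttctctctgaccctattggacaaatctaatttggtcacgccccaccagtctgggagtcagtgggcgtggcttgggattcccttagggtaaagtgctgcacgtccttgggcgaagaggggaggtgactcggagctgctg
Cox8b: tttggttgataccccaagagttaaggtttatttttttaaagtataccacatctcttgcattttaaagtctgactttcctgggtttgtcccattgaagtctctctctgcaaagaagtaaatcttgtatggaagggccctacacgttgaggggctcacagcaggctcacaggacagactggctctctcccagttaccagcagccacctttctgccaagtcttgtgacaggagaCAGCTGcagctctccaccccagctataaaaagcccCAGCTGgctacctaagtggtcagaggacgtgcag
Cox6a1: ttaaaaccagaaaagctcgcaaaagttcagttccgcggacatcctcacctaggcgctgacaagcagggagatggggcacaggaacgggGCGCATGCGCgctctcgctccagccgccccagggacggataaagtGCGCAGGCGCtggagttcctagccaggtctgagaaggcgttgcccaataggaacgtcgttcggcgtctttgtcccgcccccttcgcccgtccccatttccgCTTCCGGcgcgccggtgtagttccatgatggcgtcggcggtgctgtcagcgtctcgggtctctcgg
Cox8a: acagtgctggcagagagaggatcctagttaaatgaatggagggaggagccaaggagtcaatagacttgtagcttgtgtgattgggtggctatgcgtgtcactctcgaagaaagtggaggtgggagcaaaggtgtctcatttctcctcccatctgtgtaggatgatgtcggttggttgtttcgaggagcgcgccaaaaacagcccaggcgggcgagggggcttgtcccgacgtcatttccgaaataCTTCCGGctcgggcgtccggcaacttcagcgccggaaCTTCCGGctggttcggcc

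Cox8b holds 2 E-box matches, Cox6a1 holds 2 NRF1 and 1 ETS match, Cox8a holds 2 ETS matches, and Cox7a1 holds none of these strings in the window. Over the 65 promoters, NRF1 strings were found in 17 (26.2%, against 5.19% of the promoters of 27025 genes), ETS strings in 16 (24.6% against 9.93%), ERR strings in 8 (12.3% against 5.38%), E-boxes in 6 (9.23% against 18.3%) and the MEF2 string in 1, Cox5b (1.54% against 4.23%). These matches describe letters, not binding.

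Cox6a2, the muscle form of subunit 6a, had a signal of 757 ± 21.8 (SD, n = 3) in WT quadriceps and 2.03 ± 1.53 in WT cord of B6129. Cox6a1 had 27.5 ± 6.44 in quadriceps and 132 ± 3.96 in cord. The limma differences were 8.501 ± 0.73 (adjusted p = 1.01e-10) and -2.27 ± 0.15 (adjusted p = 5.28e-13). Cox8b had 501 ± 43.2 in quadriceps and 1.77 ± 1.11 in cord (7.94 ± 0.41, adjusted p = 3.03e-15), and Cox8a had 25.0 ± 4.51 and 102 ± 4.08 (-2.01 ± 0.14, adjusted p = 9.38e-13). Cox7a1, the muscle form of subunit 7a, had 399 ± 69.0 and 3.07 ± 0.292 (6.80 ± 0.22, adjusted p = 1.98e-19), while its partner Cox7a2 was also higher in quadriceps, by 1.36.

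Per kilobase of transcript, the muscle form made up 95.8 ± 1.02% of Cox6a, 77.1 ± 1.22% of the Cox7a1 and Cox7a2 pair and 96.9 ± 0.277% of Cox8 in WT quadriceps, against 1.28 ± 0.977%, 6.36 ± 0.722% and 2.61 ± 1.67% in WT cord (SD, n = 3). Those quadriceps proportions stayed close in every group, with group means of 95.1 to 97.0% for Cox6a2, 75.4 to 77.1% for Cox7a1 and 96.0 to 96.9% for Cox8b. The rise of both Cox8 forms in KO muscle and their fall with treatment left the proportion within that range. Cox6a2 itself differed little in KO (-0.12 on B6129, and 0.20 with an adjusted p of 0.0596 on the DBA mix) and was lower with treatment (-0.26, adjusted p = 0.0197). Cox7a1 differed by 0.00 and 0.25 in KO and fell by 0.60 (adjusted p = 0.00592) with treatment, and Cox7a2 fell by 0.61 (adjusted p = 0.000151).

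**Figure D5:**
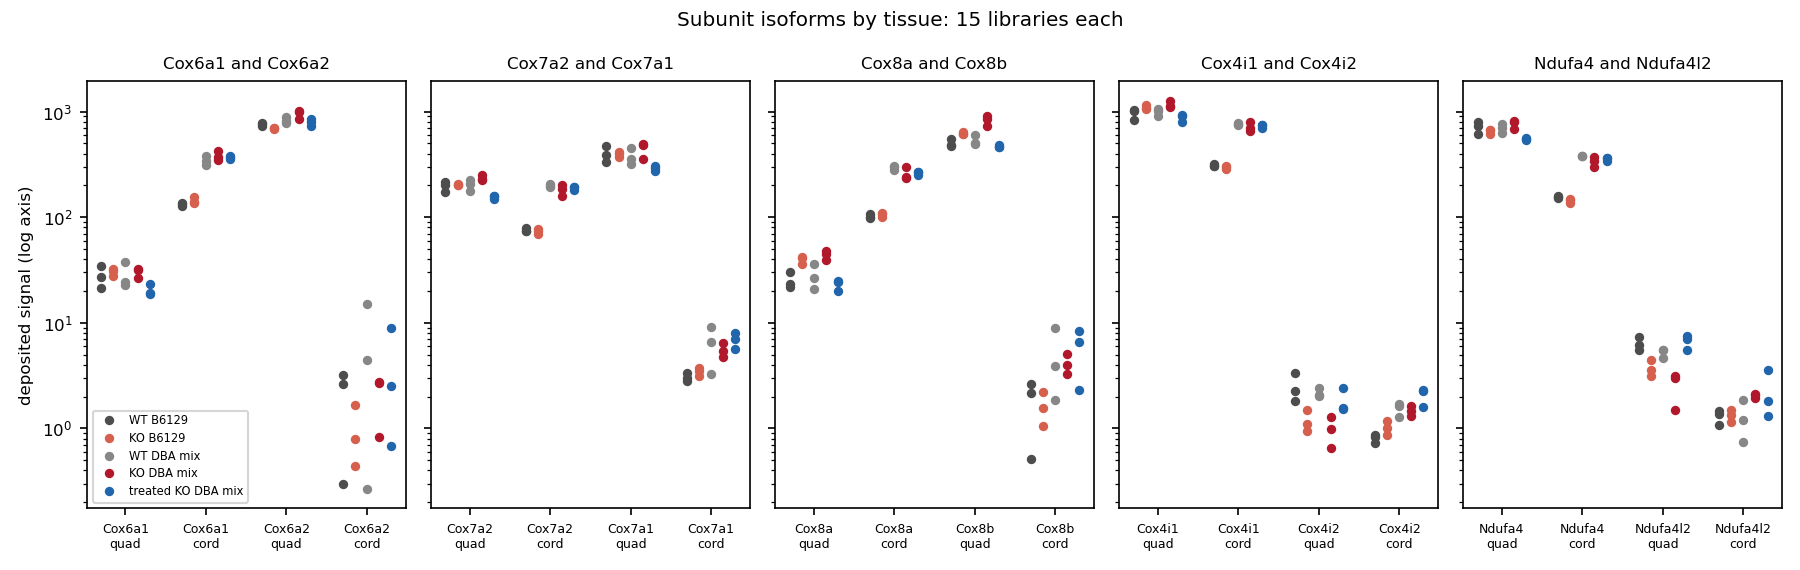
Deposited signal (log axis) of paired subunit forms in all 15 libraries of quadriceps and of spinal cord, coloured by group. Cox6a2 and Cox8b lie far above their partners in quadriceps, and Cox7a1 lies above its partner by much less. In cord each of these muscle forms lies far below its partner. The minor forms Cox4i2 and Ndufa4l2 are scarce in both tissues.

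The minor forms changed their proportion in quadriceps. Cox4i2 made up 0.277% of the Cox4 pair per kilobase in WT and 0.113% in KO of B6129, and 0.230%, 0.0869% and 0.218% in WT, KO and treated muscle of the DBA mix. Ndufa4l2 made up 0.576% and 0.373% of its pair with Ndufa4 on B6129, and 0.493%, 0.213% and 0.782% in the groups of the DBA mix. Their partners were steadier in KO: Cox4i1 differed by 0.19 and 0.23 and Ndufa4 by -0.13 and 0.13, none of them called, and both fell with treatment (-0.41, adjusted p = 0.00453, and -0.46, adjusted p = 0.00265). Of the ring subunit c genes of ATP synthase, Atp5g1 differed by -0.14 with treatment and was not called, and Atp5g3 fell by 0.41 (adjusted p = 0.0134). Cox7b fell by 0.39 (adjusted p = 0.0143) and Cox7a2l, a supercomplex factor, by 0.34 (adjusted p = 0.00337).

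Levels per kilobase spread over a wide range within WT quadriceps of B6129. Mitochondrially encoded genes led, from 53469 per kilobase for mt-Co1 and 51415 for mt-Co2 down to 4658 for mt-Nd3, whose reads are shared with a copy. The highest nuclear gene was Atp5b at 2134 per kilobase, followed by Atp5a1 at 1477 and Cox8b at 1392. At the low end stood Atp5s at 14.2, Ndufa4l2 at 6.79 and Cox4i2 at 3.37. In WT cord of B6129 the order began in the same way, with mt-Co1 at 8162 and mt-Co2 at 7353 per kilobase and Atp5b at 424 and Cox4i1 at 406 as the highest nuclear genes, and the muscle forms Cox7a1 (7.81), Cox8b (4.91) and Cox6a2 (2.99) stood near the bottom.

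In spinal cord few members passed the test for the knockout. On B6129 none of the 95 was called by limma or edgeR and 1 by DESeq2, where limma called 1.16% of all genes. At an unadjusted p under 0.05 there were 11 nuclear and no mitochondrially encoded members, and the median differences were -0.06 and 0.07. mt-Nd5 had 1709, 1559.5 and 1352 in WT and 1621, 1634 and 1809 in KO, which overlap. mt-Co1 had 13379, 12228 and 12225 against 12890.5, 13278 and 12618.

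In KO cord of the DBA mix 7 nuclear members fell and 1 rose, where 13.0% of all genes were called, 5.85% lower and 7.16% higher. Sdhd had 80.6, 82.7 and 84.3 in WT and 68.9, 68.4 and 72.8 in KO, without overlap (-0.24 ± 0.05, adjusted p = 0.0082). Uqcrfs1 had 151, 149 and 147 against 117, 137 and 127 (-0.23, adjusted p = 0.00837), and Cyc1 had 141, 145 and 145 against 124, 127 and 131 (-0.18, adjusted p = 0.0112). Also lower were Atp5a1 (-0.17, adjusted p = 0.0236), Uqcrb, a small subunit of complex III (-0.16, adjusted p = 0.0222), and Ndufs1 (-0.16, adjusted p = 0.0422). In all, 76 of 82 nuclear differences were negative, with a median of -0.11, a count with no share over all genes beside it. Other genes had a median of -0.05 under 600 bases and of 0.00 over 2000 bases. The count of 7 became 31 without KO library 7, 3 without WT library 1, and 1 in a fit of only these groups. The member that rose was Ndufs5 (0.50, adjusted p = 0.0168), which differed by -0.02 when summed with its copy BC002163. None of the mitochondrially encoded members was called by limma, edgeR or DESeq2, none had an unadjusted p under 0.05, and their median was 0.09. Markers of cell types moved in the same comparison. Macrophage and microglia genes rose in 7 of 8, with sums of 75.2 to 79.7 in WT and 141 to 158 in KO. Among 6 astrocyte genes Gfap (1.40) and Aqp4 (0.49) rose, with sums of 3063 to 3550.1 in WT and 5263 to 5475 in KO. Among 10 neuronal genes Syt1 (-0.35) and Gad1 (-0.33) fell and 9 had a negative difference, with overlapping sums of 6130.2 to 7203 in WT and 5961 to 6403 in KO. Endothelial genes rose in 3 of 7 and oligodendrocyte genes in 2 of 8. The part of these cell types in the differences of the members was not tested.

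No member passed the test for treatment in cord. Between treated and untreated KO, limma called 0% of all genes, and edgeR and DESeq2 called no member. At an unadjusted p under 0.05 there were 3 nuclear members. Against WT, treated KO cord had 6 nuclear members lower and 1 higher, where 16.8% of all genes were called, 7.95% lower and 8.81% higher. Those lower were Uqcrb (-0.19, adjusted p = 0.00672), Sdhd (-0.20, adjusted p = 0.014), Cox7a2l (-0.22, adjusted p = 0.0223), Uqcrfs1 (-0.18, adjusted p = 0.0231), Atp5a1 (-0.15, adjusted p = 0.0299) and Cox5a, which binds in the matrix face of complex IV (-0.19, adjusted p = 0.0475). A fit of only these groups called none of them, and the 6 became 2 without WT library 1 and 10 without untreated KO library 7. The higher one was Ndufs5 (0.53, adjusted p = 0.00992), which is uncertain as above. In this comparison Stmn2 (-0.27) and Gad1 (-0.36) of the 10 neuronal genes were lower, with sums of 5854 to 6057 in treated KO, all below WT. Of the 6 astrocyte genes Gfap (1.42), Aqp4 (0.54), Aldh1l1 (0.27) and S100b (0.35) were higher, with sums of 5003 to 6377. Macrophage and microglia genes were higher in 5 of 8, oligodendrocyte genes in 5 of 8, endothelial genes in 2 of 7 and fibroblast genes in 2 of 6. Their part was not tested here either. This comparison shares its WT libraries with that of untreated KO against WT. The difference of the knockout effect between backgrounds was called for no member in cord by limma, edgeR or DESeq2 (0.524% of all genes by limma, with 0.417% higher), with 3 nuclear members at an unadjusted p under 0.05.

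The tissues differed in the size of these effects by a direct test over both, in a limma fit without a term for the animal. The knockout effect in quadriceps minus that in cord was called for 6 nuclear members in the positive and 5 in the negative direction and for 8 mitochondrially encoded members in the negative direction on B6129 (25.4% of all genes, 12.2% positive and 13.1% negative). Under quantile normalisation these became 21, 1 and 3. On the DBA mix these counts were 25, 5 and 6 (32.3% of all genes, 13.6% positive and 18.7% negative), or 43, 4 and 1 under quantile normalisation. For treatment, 3 nuclear members were positive and 41 negative, and 5 mitochondrially encoded members were positive (33.6% of all genes, 19.6% positive and 14.0% negative), or 2, 54 and 1 under quantile normalisation.

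Of the comparisons made within a tissue, that of WT cord of the DBA mix with WT cord of B6129 had the most genes called. There 77 of 82 nuclear members were higher and 1 lower, and all 13 mitochondrially encoded members were higher, where 32.3% of all genes were higher and 34.5% lower (66.8% in all). Atp5e had 32.5, 35.4 and 37.5 in B6129 and 209.9, 208 and 178 in the DBA mix (2.48 ± 0.14, adjusted p = 1.89e-09). Ndufa2 had 33.5, 37.8 and 37.5 against 136, 129 and 111 (1.77). Of the 13 members with a redox centre or in the catalytic head, 12 were higher and 1 lower, with a median of 0.66 against 1.26 for the other 69, of which 65 were higher and none lower. Within the catalytic group, Sdha and Atp5a1 differed by 0.10 and Atp5b by 0.31, and the 1 that was lower was Ndufs1 (-0.23 ± 0.05, adjusted p = 0.000791). Median differences were 1.19 for nuclear and 1.40 for mitochondrially encoded members, against -0.02 over all genes. Under quantile normalisation 5 of the 13 were higher and 1, mt-Co2, was lower (-0.33), and with the length trend removed 7 were higher. In cord, copies take a varying part of the signal of mt-Co2 and most of that of mt-Atp6. Without either adjustment mt-Co2 differed by 1.03, or 1.54 summed with its copy, and mt-Atp6 by 0.68, or 1.62 summed.

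Library make-up moved with this difference. Other genes under 600 bases had a median of 1.11 and those over 2000 bases of -0.18, so length and background moved together here, and the Spearman coefficient of length with the difference was -0.55 across nuclear members and -0.57 across other genes. All 7 endothelial and all 5 blood genes listed were lower in the DBA mix, with endothelial sums of 121 to 141 in B6129 and 48.3 to 51.5 in the DBA mix, and 7 of 8 oligodendrocyte genes were higher, with sums of 15266 to 16236 and 25588 to 34820. Background, library series and these shifts cannot be told apart. Quadriceps of the same animals showed little of it: between the WT groups 1 of 81 nuclear members was higher, Atp5e (0.71), and no other member was called, where 2.57% of all genes were (1.39% higher). All 13 mitochondrially encoded members were lower there by value, with a median of -0.15 and none called by limma or edgeR and 1 by DESeq2.

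Other mitochondrial genes, in lists beyond the subunits, gave a context in quadriceps. The counts of each list are to be read against the shares over all genes tested, of which 16.7% rose and 19.0% fell on B6129, 17.1% rose and 22.3% fell on the DBA mix, and 23.6% rose and 17.1% fell with treatment. Of 14 genes of the tricarboxylic acid cycle, which supplies the NADH and succinate, 9 fell and 1 rose in KO of B6129, 12 fell and 1 rose on the DBA mix, and 7 rose and 1 fell with treatment. Idh3a, the NAD-dependent isocitrate dehydrogenase, fell by 0.54 on B6129 (adjusted p = 0.000164), and Suclg1, of succinyl-CoA ligase, by 0.68 and 0.62. The exception was Idh2, the NADP-dependent form, which rose by 0.75 and 0.83 and fell by 1.17 with treatment (adjusted p = 6.08e-06).

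Of 26 genes that copy, transcribe or handle mitochondrial DNA and RNA, 12 fell on each background, 1 rose on B6129 and none on the DBA mix, and 11 rose and 4 fell with treatment. Taco1, which activates translation of mt-Co1, fell by 0.75 and 0.78 and rose by 0.70, and Lrpprc, which stabilises mitochondrial messages, fell by 0.47 on B6129. Polrmt, the mitochondrial RNA polymerase, rose by 0.93 with treatment (adjusted p = 5.27e-06). Of 15 assembly factors of complex I, 10 fell and 1 rose on B6129, 7 fell and 1 rose on the DBA mix, and 3 rose and 2 fell with treatment.

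Of 21 assembly factors of complex IV, 2 rose and 2 fell on B6129 and 3 and 4 did on the DBA mix, no larger shares than over all genes, and 3 rose and 8 fell with treatment. Coa7 fell by 0.74 and 0.61, while the short copper chaperone Cox17 rose by 0.39 and 0.69 and fell by 0.79 with treatment. Of 13 factors for complexes II, III and V, 5 fell and 2 rose on B6129 and 6 fell and 3 rose on the DBA mix. Of 15 regulators of mitochondrial biogenesis, 5 fell and 1 rose on B6129 and 6 fell and 1 rose on the DBA mix. Prkaa2, the catalytic alpha2 subunit of AMP-activated kinase, fell by 0.86 on each and rose by 0.81 with treatment, and Prkaa1, the alpha1 subunit, did the opposite (0.73, 0.90 and -0.97). Of 15 import, pore and chaperone genes, 6 fell and 1 rose on B6129 and 5 fell and 2 rose on the DBA mix. Of 5 subunits or close associates outside the name pattern, Atpif1, which inhibits ATP synthase when it runs in reverse, rose by 1.02 and 1.18 and fell by 1.52 with treatment (adjusted p = 5.1e-07). Between treated KO and WT none of these lists held a riser, and each held at most 1 gene that fell. In that comparison only 1.93% of all genes were higher and 1.05% lower, so short lists would hold few calls in any case.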

How the data were processed

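Polyadenylated RNA of 30 libraries (NEBNext Ultra, single-end, 61 bases, HiSeq2500) was measured in 15 mice, in quadriceps and spinal cord of each. The submitters' processing notes name cutadapt, RSEM, edgeR, limma and GRCm38, with no versions. The authors deposited 1 table of 17420 genes, whose values are a normalised signal. Of these genes, 265 carry an Ensembl identifier but no name and were kept in the library sizes and tests. Each value is (reads + 0.5) over a scaled library size, and 100% of values gave whole reads within 0.001 when this was undone. Gene identifiers matched the annotation GENCODE vM21 for 99.868%, which gave transcript lengths.

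The deposited signal was tested on the log2(signal + 0.5) scale with limma 3.58.1 (R 4.3.3, intensity trend) over genes that reached a signal of 1 in 3 or more libraries of that tissue, with 5 groups in 1 fit and Benjamini-Hochberg adjustment over all genes tested. edgeR 4.0.16 and DESeq2 1.42.0 were run on the recovered reads. Tissues were compared over 13187 genes and all 30 libraries. The labels say that both tissues came from the same animal, and deviations from group means correlated between tissues in 15 of 15 animals (r from 0.109 to 0.354). Tested on simulated data for the treatment comparison, the limma fit found 79% of 2-fold and 48% of 1.5-fold changes in quadriceps, with 7 of 134 calls wrong, and 97% and 82% in cord, with 7 of 186 wrong. The real treatment comparison called 5736 genes in quadriceps and 0 in cord. The simulated setting therefore differs from the data, and its shares do not give the power or error rate of the calls reported.

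The genes and lists were chosen with earlier results of these data known. Named are all mitochondrially encoded members, the tissue isoform pairs, and in each comparison up to 2 called members per complex and direction with the smallest adjusted p, members called against the majority and those differing between tissues, with up to 2 called genes per direction of other lists. Members named beyond that, such as Sdhb, Sdhc, Uqcrq or Cox6b1 where not among these, were chosen after their values were seen. Pseudogene copies were summed where they hold at least 20% of a member's 61-base stretches (15 copies, 12 members). The copy of mt-Nd4l was not analysed here. The values of 1 nuclear member are not reported here, although it is included in the counts.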

Additional observations from a re-analysis of the deposited data

Results flagged for a closer look

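The results below stood out because the effect in quadriceps differed from that in spinal cord of the same mice by a direct test, the limma interaction of tissue and effect with Benjamini-Hochberg adjustment over 13187 genes. That fit has no term for the animal, although both tissues came from the same mice. The adjusted p of the same test with the animal as a replicate block follows each set. Values are the effect in quadriceps minus the effect in cord on the log2 scale. For each background and for treatment, the 6 members with the smallest p are given.

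On B6129 the knockout effect was lower in quadriceps for the mitochondrially encoded mt-Nd4l (-1.15 ± 0.22 SE, adjusted p = 0.000474), mt-Nd5 (-1.13 ± 0.22, adjusted p = 0.000579), mt-Atp8 (-1.02 ± 0.21, adjusted p = 0.000972) and mt-Nd2 (-1.03 ± 0.23, adjusted p = 0.00175), and for the succinate-oxidising Sdha (-0.42 ± 0.10, adjusted p = 0.00229). It was higher for the complex I subunit Ndufa13 (0.44 ± 0.11, adjusted p = 0.00627). With the animal as a replicate block the adjusted p, in that order, was 0.000605, 0.000949, 0.00156, 0.00263, 0.00946 and 0.0116.

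On the DBA mix it was higher in quadriceps for Ndufb3 (0.66 ± 0.11, adjusted p = 5.82e-05), Uqcrh (0.72 ± 0.13, adjusted p = 0.000158), Cox7c (0.61 ± 0.12, adjusted p = 0.000308), Ndufa2 (0.81 ± 0.16, adjusted p = 0.000429) and Ndufa13 (0.58 ± 0.11, adjusted p = 0.000473), and lower for mt-Nd5 (-1.04 ± 0.22, adjusted p = 0.00093). With the animal as a replicate block the adjusted p, in that order, was 0.000194, 0.000638, 0.000306, 0.00383, 0.00174 and 0.00123. mt-Nd5 and Ndufa13 are in both sets.

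The effect of treatment was lower in quadriceps for Ndufb3 (-0.97 ± 0.11, adjusted p = 3.87e-07), Uqcrh (-0.97 ± 0.13, adjusted p = 3.72e-06), Ndufa2 (-1.15 ± 0.16, adjusted p = 6.51e-06), Atp5l (-1.01 ± 0.16, adjusted p = 3.09e-05), Cox7c (-0.70 ± 0.12, adjusted p = 6.13e-05) and Uqcrq (-0.79 ± 0.14, adjusted p = 9.07e-05). With the animal as a replicate block the adjusted p, in that order, was 8.74e-06, 5.64e-05, 0.00029, 0.00018, 9.12e-05 and 0.000288. The treatment comparisons share the untreated KO libraries of the DBA mix with those of the knockout, so the opposite signs are not separate evidence.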

How the results depend on the processing

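The members are measured relative to the rest of each library, and counts of calls moved with the scaling, the removal of the length trend, the tool and single libraries. Precision rests on 3 animals a group. Copies of mitochondrial genes limit mt-Atp6, mt-Nd3, mt-Co3 and mt-Co2, and in cord mt-Nd4 as well. The length-trend and pseudogene-sum settings were chosen after seeing the data. Across single members, 5230 values kept direction and side of the threshold over the settings, 306 lost a call, 61 gained one and 16 changed sign. The cause of a change was not tested unless a fit had fewer samples.

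With quantile normalisation, nuclear counts in KO quadriceps of B6129 went from 9 higher and 13 lower to 29 and 8, and on the DBA mix from 22 and 10 to 44 and 4. The mitochondrially encoded members that fell went from 10 to 4 and from 7 to 2, and those that rose with treatment from 5 to 2. mt-Co1 turned to 0.12 on B6129 and 0.23 on the DBA mix, Atp5a1 to 0.15 and Atp5b to 0.17 on the DBA mix, and Atp5b to -0.24 with treatment. In cord, nuclear members lower in KO of the DBA mix went from 7 to 3 and those higher in treated KO than WT from 1 to 2. Between WT cords, 3 nuclear members were lower in place of 1, and 5 mitochondrially encoded members were higher in place of 13 and 1 lower in place of 0, with mt-Nd4 at -0.031 and mt-Co2 at -0.33. Between tissues, the knockout effect on B6129 was called for 21 and 1 nuclear members in place of 6 and 5, and 3 mitochondrially encoded in place of 8. On the DBA mix it was called higher for 43 nuclear members in place of 25 and lower for 1 mitochondrially encoded in place of 6. The treatment effect kept 1 of 5 mitochondrially encoded by count, and between WT tissues 5 were higher in place of 13 and 3 lower in place of 0.

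Scaled to reads outside mitochondrial DNA, nuclear counts in KO quadriceps were 34 and 4 on B6129 and 55 and 2 on the DBA mix, and 3 mitochondrially encoded members fell on the DBA mix. With treatment 1 nuclear member and 3 mitochondrially encoded members rose, and Atp5b turned to -0.038. Against WT, 10 nuclear members were lower in treated KO in place of 5. Between WT quadriceps, 1 mitochondrially encoded member was lower in place of 0, and between WT cords 3 nuclear members were.

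With the length trend removed, nuclear counts in KO quadriceps were 3 and 34 on B6129 and 14 and 17 on the DBA mix, and 8 higher and 22 lower with treatment, where Cox6a2 turned to 0.068. Treated KO had 2 nuclear members below WT. No mitochondrially encoded member rose in KO of the DBA mix or fell with treatment, in place of 1 each, a count of 0. In cord, 1 nuclear member fell in KO of B6129, 2 rose and 13 fell in KO of the DBA mix, and 2 were higher in treated KO than WT. Between WT cords, 3 nuclear members were lower and 7 mitochondrially encoded higher, with mt-Nd3 at -0.14, mt-Nd4l at -0.077, mt-Atp6 at -0.32 and mt-Atp8 at -0.061.

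Summed with copies, the rise of mt-Nd3 in KO quadriceps of the DBA mix (-0.00042) and its fall with treatment were lost, leaving counts of 0, as they were with no filter. Ndufs5 turned to -0.12 in KO quadriceps of B6129 and -0.023 in KO cord of the DBA mix, leaving 0 nuclear members higher there and 0 higher in treated KO than WT. With no filter 1 nuclear member fell in KO cord of B6129. The median shift gave 11 lower in KO cord of the DBA mix. edgeR called 3 nuclear members higher with treatment. DESeq2 called 25 lower in treated KO than WT quadriceps, 1 mitochondrially encoded member lower between WT quadriceps, and 1 and 13 nuclear members lower in KO cord of B6129 and the DBA mix. Fits of only the groups compared, which have fewer samples, called 2 nuclear members higher with treatment, 0 lower in treated KO than WT in quadriceps and 0 in cord, 1 lower in KO cord of B6129, and 0 higher and 1 lower in KO cord of the DBA mix.

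With 1 library left out at a time, nuclear members called in KO quadriceps ran from 3 to 14 higher and 8 to 23 lower on B6129, and from 17 to 31 higher and 6 to 11 lower on the DBA mix. Mitochondrially encoded members ran from 8 to 11 lower, and on the DBA mix from 0 to 1 higher and 5 to 8 lower. With treatment, nuclear members ran from 3 to 7 higher and 38 to 53 lower, and mitochondrially encoded ones from 4 to 5 higher and 0 to 1 lower. Treated KO against WT ran from 0 to 6 nuclear members lower in quadriceps and 2 to 10 in cord. In KO cord they ran from 0 to 1 lower on B6129, and from 0 to 1 higher and 3 to 31 lower on the DBA mix. Differences of the log2 ratio of mitochondrial to nuclear reads ran from -0.65 to -0.50, from -0.47 to -0.34 and, for treatment, from 0.44 to 0.57 in quadriceps, and for treatment in cord from -0.15 to 0.043.

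With the animal as a replicate block, the tissue comparisons called 5 and 5 nuclear members and 7 mitochondrially encoded members lower for the knockout on B6129, 27 and 4 with 5 on the DBA mix, 3 and 46 with 5 higher for treatment, and 79 and 2 with 13 between WT tissues. The replicate block moved no count by over 1.5 times.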
